A study of Mus musculus with 10 samples.

Results

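The genes described here encode proteins that coat, build and shape the lipid droplet: the 5 perilipins (*Plin1* to *Plin5*), *Cidea* and *Cidec* of the CIDE family, *Fitm1* and *Fitm2* of the FIT family, and *Hilpda*. They were chosen by gene symbol, and all 10 were found among the 27267 genes listed. Expression was measured by RNA-seq of interscapular brown adipose tissue (iBAT) from C57BL/6 mice of 4 weeks, fed standard chow and labelled male. There were 5 wild-type (WT) libraries and 5 labelled *Mgp*-KO (the KO-labelled libraries, with *Mgp*-KO 4 for the fourth of them), a global knockout of the gene for matrix Gla protein, so that every cell type of the animal carries the deletion. The groups share strain, age, diet and labelled sex, and the comparison asks how lipid droplet genes differ in iBAT labelled *Mgp*-KO. Values are normalized counts, the reads counted on a gene divided by a size factor for the library. In total 9 of the 10 genes had a mean of at least 10 normalized counts and were tested among 13714 genes, whereas *Fitm1* did not.

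A lipid droplet holds triglyceride inside a single layer of phospholipid, and its proteins decide how much fat is stored and how readily lipases reach it. In brown adipocytes the fat is divided over many small droplets, which supply fatty acids for heat production. Perilipin 1 guards the droplet of adipocytes and, once phosphorylated, lets lipolysis proceed. Perilipins 2 and 3 are made in most tissues, perilipin 4 coats nascent droplets of adipocytes, and perilipin 5 links droplets to mitochondria in oxidative tissues. CIDE proteins transfer lipid between droplets in contact, FIT proteins act in the endoplasmic reticulum where droplets form, and HILPDA inhibits adipose triglyceride lipase.

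Several libraries stand apart from the rest or go against their labels. *Mgp* had normalized counts of 466 to 1146 in WT and 0 to 0.821 in *Mgp*-KO 1 to 3, but 500 and 331 in *Mgp*-KO 4 and 5. WT 2 had 5094 normalized counts of *Xist* and 0 of the Y-linked *Ddx3y*, a female pattern, whereas *Xist* did not exceed 44.0 in the other libraries. All labels were kept, and every direction given here rests on them. Replicates 1 to 3 held 19616366 to 22252260 reads, and replicates 4 and 5 held 9253793 to 13281873, with a higher share on mitochondrial ribosomal RNA (6.50% to 16.7%, against 0.771% to 1.72%). The tested members are therefore given over the 10 libraries together, with the replicate set as a term in the model or inside each set, and other genes mainly with that term. The methods describe the mice as pairs, and no source used here says that a pair came from 1 litter.

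Sequence upstream of a RefSeq start site is shown for *Plin2*, *Plin3* and *Hilpda*, the 3 members that DESeq2 called with the set term. In the RefSeq promoter table of GRCm38.p6, 9 of the 10 genes had an entry, with 12 windows of 250 bases before a start site in all. Each was searched on both strands for 9 motifs. AGGTCA, the core bound by nuclear receptors, was searched alone and as a pair with 1 base between. ACGTG is the core of hypoxia response elements, for which the variant GCGTG was also searched. The E-box CACGTG contains the former of these. Promoter elements were GGGCGG (the GC box), CCAAT (the CAAT box) and TATAAA (the TATA box). Forkhead sites were searched as GTAAACA. Sequences are written 5′ to 3′ on the strand of the gene, with the named motif in capitals. The first 2 lie at chr4:86670060-86670309 and chr17:56290512-56290761, both on the reverse strand, and capitals mark AGGTCA on the opposite strand in the first and GGGCGG on either strand in the second. The last is a stretch of 30 bases at chr6:29272571-29272600 on the forward strand with ACGTG in capitals. It precedes the downstream start site of *Hilpda* and is transcribed from the upstream one. The *Plin3* window lies inside the gene as annotated by GENCODE, which starts at chr17:56292873 on the reverse strand.
*Plin2*: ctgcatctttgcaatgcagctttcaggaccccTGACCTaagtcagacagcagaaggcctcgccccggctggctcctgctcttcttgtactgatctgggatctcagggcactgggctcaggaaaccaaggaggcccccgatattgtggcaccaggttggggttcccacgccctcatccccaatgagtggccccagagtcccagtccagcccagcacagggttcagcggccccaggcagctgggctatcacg
*Plin3*: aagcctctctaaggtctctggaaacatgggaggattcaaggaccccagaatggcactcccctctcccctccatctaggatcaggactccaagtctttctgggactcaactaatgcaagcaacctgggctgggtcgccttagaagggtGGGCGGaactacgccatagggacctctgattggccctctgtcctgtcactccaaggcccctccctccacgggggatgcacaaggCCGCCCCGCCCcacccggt
*Hilpda*: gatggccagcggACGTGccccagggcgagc

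The *Plin2* window held 1 AGGTCA, 218 bases before the start, and the pair of such sites was in none of the 12 windows. Over all 32851 promoter windows of this length, 14.0% held AGGTCA, and among these genes 1 of the *Plin5* windows held it too, 170 bases before the start. The *Plin3* window held 3 matches to GGGCGG, 2 of which overlap, and neither the nuclear receptor core nor that of hypoxia response elements. The GC box was in 32.7% of all windows, and also in windows of *Plin5*, *Fitm2* and *Hilpda*. ACGTG was in the *Hilpda* window of the downstream start, 43 bases before it, and in no other window of these genes, against 16.6% of all windows. Its variant GCGTG was in windows of *Plin2*, *Plin5*, *Cidec*, *Fitm2* and *Hilpda*, against 28.2% of all windows. These matches describe the letters alone, and binding was not measured.

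The droplet genes differed strongly in level. Per kilobase of merged exon, *Cidea* was highest in WT, with 32948 normalized counts ± 4649 (SD, n = 5), followed by *Cidec* with 6954 ± 315. *Plin1* (3366 ± 1007) and *Plin2* (2160 ± 898) came next, and their WT ranges overlapped. *Plin4* (1253 ± 444), *Plin5* (1222 ± 259) and *Fitm2* (850 ± 135) followed, with overlapping ranges between *Plin2* and *Plin4*, *Plin4* and *Plin5*, and *Plin5* and *Fitm2*. Below them *Plin3* (515 ± 64.3) and *Hilpda* (64.7 ± 21.9) were each clear of their neighbours. *Fitm1* was lowest (4.39 ± 6.39). The CIDE genes were therefore the highest of these 10 genes in WT iBAT per kilobase. Exon length matters for this order: on the longest annotated transcript, *Plin1* had 5555 and *Plin2* 4018 normalized counts per kilobase, the ranges of *Cidec* and *Plin1* overlapped, and *Plin4* and *Plin5* exchanged places.

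**Figure D1:**
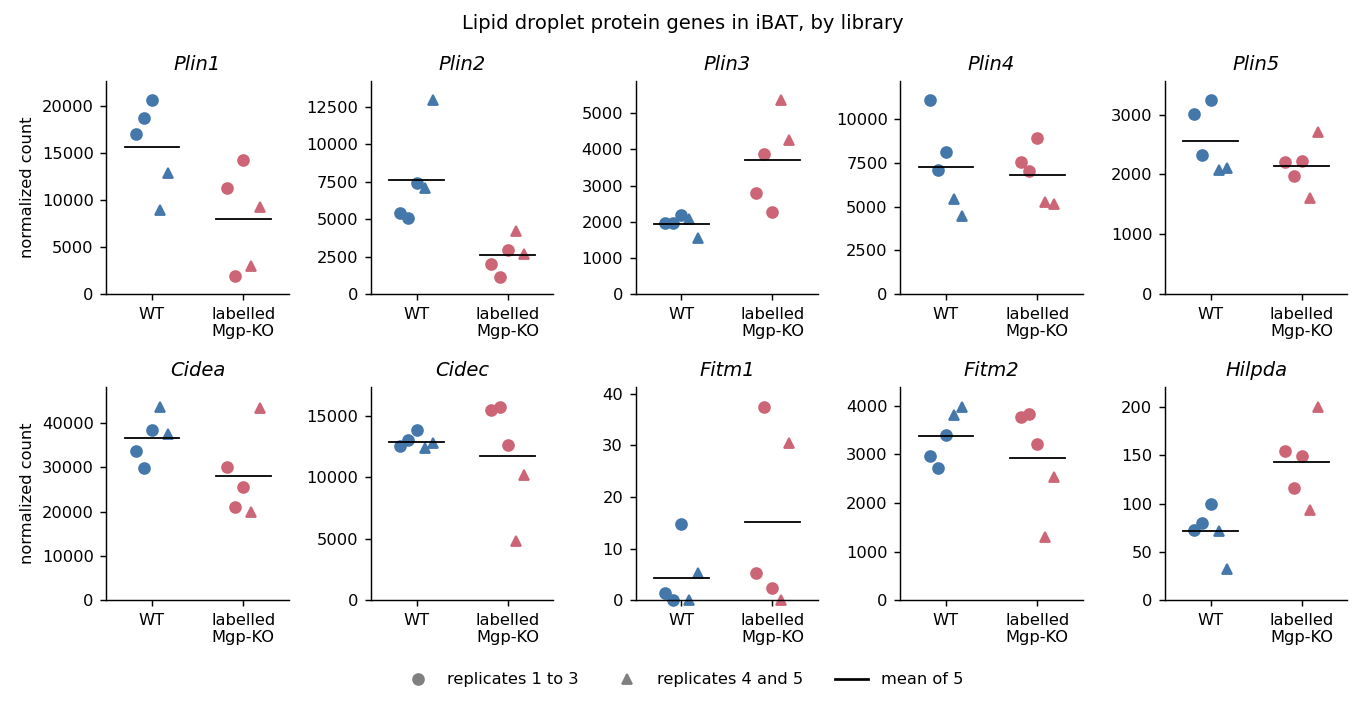
Normalized count of each lipid droplet gene (vertical axis, linear, from 0) in the WT libraries (blue) and those labelled *Mgp*-KO (red), with circles for replicates 1 to 3, triangles for replicates 4 and 5 and a line at the mean of 5. *Plin2* is lower in each KO-labelled library than in any WT library and *Plin3* is higher, whereas the other genes overlap.

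*Plin2* and *Plin3*, the perilipins made in most cell types, lay apart from WT in opposite directions. *Plin2* (ENSMUSG00000028494, chr4:86648386-86670060, reverse strand) encodes adipophilin, whose protein is stable mainly when bound to droplets. Its normalized counts in WT 1 to 5 were 5385, 5110, 7408, 7099 and 12930. Those of KO-labelled replicates 1 to 5 were 2003, 1160, 2963, 4188 and 2690. Each of the latter lay below each WT value, and the mean was 2.92-fold lower (2601 ± 1128 against 7586 ± 3154, SD, n = 5).

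With the set term, *Plin2* fell with a log2 fold change of -1.58 (SE 0.27, adjusted p = 0.0162 from limma). It was the only member past the threshold of an adjusted p under 0.05 in that fit, in which 324 of the 13714 genes (2.36%) passed. Without the set term the adjusted p was 0.106, where 9 genes (0.0656%) passed and none of the members did, although 1421 genes had an unadjusted p under 0.05. On recovered reads DESeq2 gave 0.00324 without and 3.29e-06 with the set term. The call with the set term in limma was lost without WT 2 (0.0502), without WT 3 (0.0605), or without both *Mgp*-KO 4 and 5 (0.0541, an alternative chosen after seeing the data), while the log2 fold change stayed between -1.75 and -1.38 over 20 alternatives.

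The estimate for *Plin2* differed by 0.12 (SE 0.57) between the sets on the log2 scale (adjusted p = 0.945 for the interaction, from limma). Within replicates 1 to 3 the log2 fold change was -1.63 (SE 0.33, adjusted p = 0.0427 from limma), and *Plin2* was the only member among the 486 genes (3.54%) past the threshold. This call was lost in limma without WT 1, 2 or 3 or *Mgp*-KO 1, each in turn. Within replicates 4 and 5 the log2 fold change was -1.51 (SE 0.47, adjusted p = 0.679 from limma, 2 libraries per group). There no gene passed in limma, and 855 had an unadjusted p under 0.05. DESeq2, run without the filter on mean count, called 50 of 22807 genes (0.219%) but no member. *Plin2* was also one of 2 members that differed between the sets themselves, higher in replicates 4 and 5 by 0.76 on the log2 scale (adjusted p = 0.0470 from limma), as did 38.2% of all genes.

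Some brown adipocyte markers were lower along with *Plin2*. The sum of 9 such markers was 74133 to 167527 normalized counts in WT and 27184 to 65491 in the KO-labelled libraries, without overlap, and *Ucp1* was its largest part in WT (60876 ± 32192). With the set term 4 of the 9 fell: *Ucp1* (log2 fold change -2.70), *Dio2* (-3.35), *Elovl3* (-3.64) and *Otop1* (-2.09). None of these calls held in limma over all libraries, where the adjusted p ranged from 0.0504 (*Otop1*) to 0.363 (*Dio2*). The other 5 markers did not pass in either fit, with log2 fold changes of -0.16 for *Ppargc1a*, -0.012 for *Cox8b*, -0.36 for *Cox7a1*, -0.36 for *Adipoq* and 0.51 for *Zic1*. *Adipoq*, which all adipocytes express, had 14506 ± 1575 normalized counts in WT and 12442 ± 5591 in the other group (adjusted p = 0.564 from limma). In bulk tissue fewer cells of a type and less RNA per cell cannot be told apart, and the part of the marker difference in that of *Plin2* was not tested.

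*Plin3* (ENSMUSG00000024197, chr17:56277476-56292873, reverse strand) encodes TIP47, a perilipin that is soluble in the cytosol and binds early droplets. Its normalized counts in WT 1 to 5 were 1961, 1969, 2194, 2081 and 1550. The KO-labelled replicates 1 to 5 had 2809, 3879, 2261, 5357 and 4273. The groups did not overlap, although *Mgp*-KO 3 was close to the highest WT library, and the spread was wider in the KO-labelled libraries (SD 1222 against 243). The mean was 1.90-fold higher. *Mgp*-KO 4, highest for *Plin3*, also had the highest sums of endothelial (55080) and blood markers (101447). *Mgp*-KO 5 and 2, next in order, had the highest sums of skeletal muscle markers (41530 and 41138). *Mgp*-KO 1 and 3 were above all WT libraries for *Plin3* without such sums. The part of these values in the counts of *Plin3* was not tested.

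The log2 fold change of *Plin3* was 0.87, and the call depended on the tool. In limma the adjusted p was 0.201 over all libraries (SE 0.24) and 0.0583 with the set term (SE 0.21), whereas in DESeq2 it was 0.0165 and 0.00270, so that *Plin3* rose by DESeq2 only. DESeq2, run without the filter on mean count, called 3 members among 1152 of 27162 genes (4.24%) with the set term. Without the set term it called 2 members among 374 of 27122 genes (1.38%). These shares are over a wider set than the 13714 genes of limma. Without *Mgp*-KO 3, limma with the set term gave 0.0470. Its log2 fold change was 0.51 for replicates 1 to 3 alone and 1.41 for replicates 4 and 5 alone. The difference between these had an unadjusted p of 0.0275 and an adjusted p of 0.466 from limma. In total 2 of the 9 tested members had groups of 5 without overlap, *Plin2* lower and *Plin3* higher, against 3.50% of all tested genes.

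The balance between these perilipins lay apart between the groups as well. Per kilobase, the ratio of *Plin3* to *Plin2* was between 0.111 and 0.357 in WT and between 0.708 and 3.10 in the KO-labelled libraries, again without overlap, which follows from the opposite directions of its parts. *Mgp*-KO 2 had the highest ratio and *Mgp*-KO 3 the lowest of its group. Among the 5 perilipins, *Plin2* took 25.8% (SD 11.0) of the summed level per kilobase in WT and 13.3% (SD 6.31) in the other group. For *Plin3* the shares were 6.19% ± 1.41 and 18.8% ± 8.69. Their ranges overlapped for all 5 perilipins on merged exons, and on the longest transcript those of *Plin3* did not. The summed level was 8516 ± 1332 per kilobase in WT and 5637 ± 1227 in the KO-labelled libraries.

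**Figure D2:**
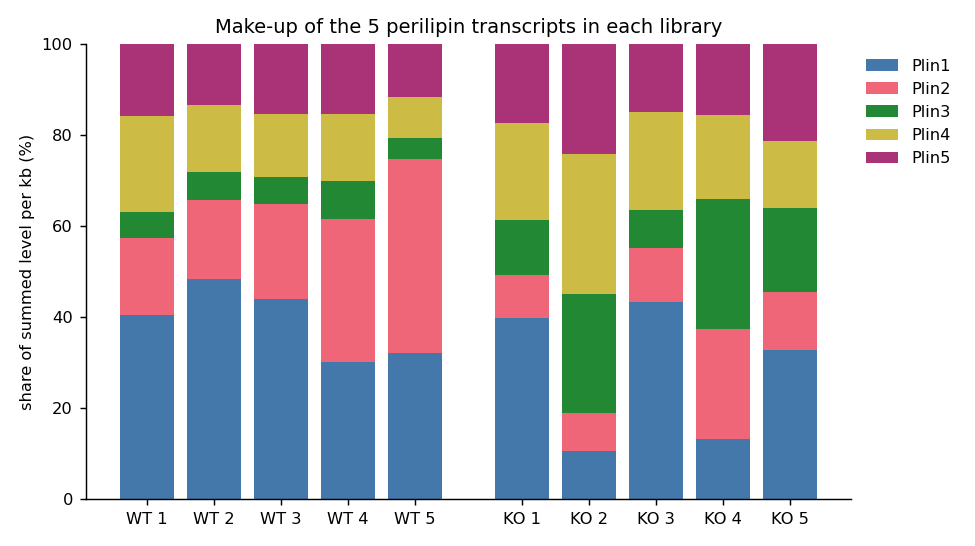
Share of each perilipin in the summed level of the 5 perilipins per kilobase of merged exon (vertical axis, percent), 1 bar per library, with WT on the left and KO-labelled libraries (KO) on the right. *Plin3* takes 4.74% to 8.53% of the WT bars and 8.38% to 28.6% of the others, and *Plin1* is small in KO 2 (10.6%).

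*Plin1* (ENSMUSG00000030546, chr7:79720218-79732903, reverse strand), the gatekeeper of adipocyte lipolysis, spread widely among the libraries. Its normalized counts in WT 1 to 5 were 17011, 18709, 20627, 9009 and 12881. Those of KO-labelled replicates 1 to 5 were 11293, 1929, 14322, 3048 and 9269. *Mgp*-KO 2 and 4 were far below the rest of their group, while *Mgp*-KO 1, 3 and 5 lay within the WT range. The groups overlapped, but did not within replicates 1 to 3, where 30.6% of all tested genes did not either. *Mgp*-KO 2 and 4 also had the lowest sums of brown adipocyte markers (27184 and 39712). The sums of *Mgp*-KO 1, 3 and 5 were below all WT libraries too. The part of these values in the counts of *Plin1* was not tested.

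The log2 fold change of *Plin1* was -1.29 (SE 0.52, adjusted p = 0.415 over all libraries and 0.190 with the set term, both from limma), past the threshold in no alternative. Its size rested in part on *Mgp*-KO 2, since the leave-one-out fits with the set term ranged from -1.57 to -0.77.

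*Plin4* and *Plin5* lie 1798 bases apart on the reverse strand of chromosome 17. *Plin4* (ENSMUSG00000002831, chr17:56100591-56109803) had 7237 ± 2565 normalized counts in WT and 6779 ± 1578 in the KO-labelled libraries, with overlapping groups and a log2 fold change of -0.05 (SE 0.27, adjusted p = 0.965 from limma) whose sign turned under quantile normalization (0.03). What separated its libraries was the replicate set: replicates 4 and 5 ranged from 4468 to 5445 and replicates 1 to 3 from 7004 to 11063, a difference of -0.69 on the log2 scale (adjusted p = 0.00850 from limma). *Plin4* shares 17 bases of exon with *Hdgfl2*.

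*Plin5* (ENSMUSG00000011305, chr17:56111601-56117596) had 2550 ± 540 normalized counts in WT and 2143 ± 402 in the other group. Its log2 fold change was -0.25 (SE 0.20, adjusted p = 0.722 from limma) over all libraries. It was -0.41 within replicates 1 to 3, where the groups did not overlap (nor did those of 30.6% of all tested genes) and the adjusted p was 0.167 from limma. For replicates 4 and 5 alone it was -0.0029. The perilipin of oxidative tissue thus showed no difference past the threshold in these fits.

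**Figure D3:**
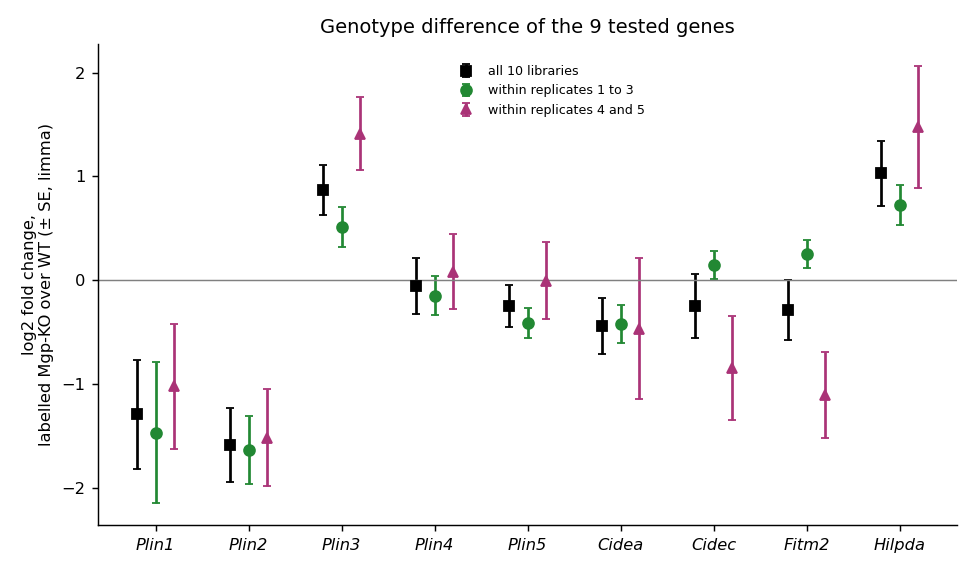
Log2 fold change of the KO-labelled libraries over WT (vertical axis, limma, with SE bars) for the 9 tested genes over all 10 libraries (squares), within replicates 1 to 3 (circles) and within replicates 4 and 5 (triangles). *Plin2* is near -1.5 in all 3, *Plin3* and *Hilpda* are above 0 in all 3, and *Cidec* and *Fitm2* lie on opposite sides of 0 in the sets.

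Of the CIDE genes, *Cidea* (ENSMUSG00000024526, on chromosome 18) marks brown and beige fat and promotes the growth of droplets. Its normalized counts in WT 1 to 5 were 33817, 29974, 38525, 43754 and 37616. The KO-labelled replicates 1 to 5 had 30074, 21160, 25554, 19856 and 43537. *Mgp*-KO 2, 3 and 4 were below all WT libraries, whereas *Mgp*-KO 5 was next to the highest. The log2 fold change was -0.44 (SE 0.27, adjusted p = 0.605 from limma), and within the sets it was -0.42 and -0.46. Over 22 alternatives to the fit of all libraries it ranged from -0.61 to -0.17, the latter under quantile normalization. *Cidea* thus did not pass in these fits.

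*Cidec* (ENSMUSG00000030278, chr6:113424634-113435760, reverse strand) encodes FSP27, which serves the large droplet of white adipocytes and is also made in brown fat. It was the steadiest of these genes among WT libraries, with 12381 to 13854 normalized counts. KO-labelled replicates 1 to 5 had 15464, 15750, 12629, 4830 and 10147. *Mgp*-KO 1 and 2 were above all WT libraries and *Mgp*-KO 4 and 5 below. The log2 fold change was -0.25 over all libraries (SE 0.31, adjusted p = 0.831 from limma), 0.15 within replicates 1 to 3 and -0.84 within replicates 4 and 5, and it was 0.04 without *Mgp*-KO 4.

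Of the FIT genes, *Fitm2* (ENSMUSG00000048486, chr2:163466379-163472629, reverse strand) is made in many tissues, adipose tissue among them, and it followed *Cidec*. Its normalized counts in WT 1 to 5 were 2968, 2712, 3389, 3805 and 3978. Those of KO-labelled replicates 1 to 5 were 3763, 3832, 3207, 1295 and 2533. Again *Mgp*-KO 4 was lowest, and *Mgp*-KO 1 and 2 were higher than WT 1 to 3. The log2 fold change was -0.29 over all libraries (SE 0.29, adjusted p = 0.784 from limma) and -0.020 without *Mgp*-KO 4. It was 0.25 in replicates 1 to 3 and -1.10 in replicates 4 and 5. This difference between the sets was the largest among the members, with an unadjusted p of 0.00445, and did not pass (adjusted p = 0.455 from limma). Of all genes, 1 (0.00729%) passed this test, and 1419 had an unadjusted p under 0.05. The gene that passed was *Mgp* itself, with log2 fold changes of -8.43 in replicates 1 to 3 and -1.27 in replicates 4 and 5. For *Cidec* the unadjusted p was 0.0391 and the adjusted p 0.471.

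*Cidec* and *Fitm2* were the 2 members with the most similar patterns. After each gene was centred on its mean in each replicate set, the root mean square difference of their log2 values over 10 libraries was 0.111, and the ratio of *Fitm2* to *Cidec* per kilobase was 0.114 to 0.125 in the KO-labelled libraries and 0.0973 to 0.146 in WT. *Mgp*-KO 4, in which both were low, also stood apart in markers of other cells. Its sum of 8 endothelial markers was 55080 normalized counts, against 18108 to 30344 in the other libraries, its sum of 5 blood markers was 101447 against 3009 to 26397, and its share of mitochondrial ribosomal RNA was 16.7%. The part of these values in the low counts was not tested. *Fitm2* shares 227 bases of exon with the antisense gene *2310001K24Rik*, which had a mean of 13.8 normalized counts.

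*Fitm1* (ENSMUSG00000022215, chr14:55575617-55576954, forward strand) is chiefly a gene of skeletal and heart muscle. It had 2, 0, 20, 0 and 3 reads in WT 1 to 5 and 7, 49, 3, 0 and 26 reads in KO-labelled replicates 1 to 5. A count of 0 allows up to 3 reads, which is 2.25 to 4.86 normalized counts in the libraries concerned. *Mgp*-KO 2 and 5 were highest, with 37.5 and 30.5 normalized counts, and they were also the libraries with the most RNA of skeletal muscle. The sum of 10 muscle markers was 41138 and 41530 normalized counts there, 7895 in WT 3 and 356 to 5662 elsewhere. All 10 markers were detected in the series, and no muscle marker passed the test between genotypes. The part of muscle RNA in the level of *Fitm1* was not tested. *Fitm1* shares 109 bases of exon with the antisense gene *Gm15932*, and without strand information their reads cannot be told apart.

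**Figure D4:**
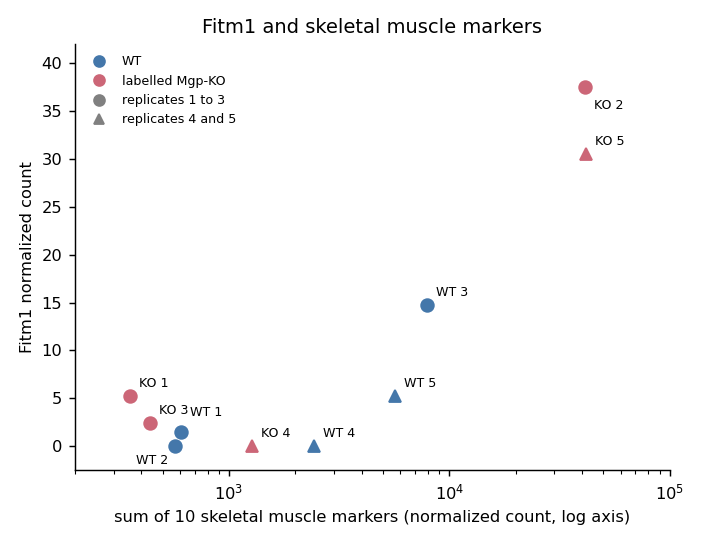
Normalized count of *Fitm1* (vertical axis) against the sum of 10 skeletal muscle markers (horizontal axis, normalized count, log scale) in the 10 libraries, with WT in blue, KO-labelled libraries in red and triangles for replicates 4 and 5. KO 2 and KO 5 are highest on both axes, and WT 3 is next on both.

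*Hilpda* (ENSMUSG00000043421, chr6:29272488-29275446, forward strand) encodes a small protein induced by hypoxia and by fatty acids. Its normalized counts in WT 1 to 5 were 73.0, 80.1, 99.2, 71.8 and 32.9, from 19 to 135 reads. The KO-labelled replicates 1 to 5 had 155, 116, 149, 93.9 and 200, from 58 to 205 reads. The groups overlapped only by *Mgp*-KO 4 and WT 3, and they did not overlap within either set, as held for 30.6% of all genes in replicates 1 to 3 and 41.6% in the others. The mean was 143 ± 40.6 normalized counts in the KO-labelled libraries and 71.4 ± 24.2 in WT (SD, n = 5).

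The log2 fold change of *Hilpda* was 1.03 (SE 0.31), with an adjusted p of 0.236 over all libraries and 0.0813 with the set term, both from limma. In DESeq2 it was 0.0638 over all libraries and 0.0134 with the set term, so that *Hilpda* rose only in the latter of these 4 fits. Within replicates 1 to 3 the log2 fold change was 0.73, with an adjusted p of 0.0862 from limma and 0.0362 from DESeq2. The latter called 2 members among 1348 of 25762 genes (5.23%) there. Within replicates 4 and 5 it was 1.48.

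The median log2 fold change of the 9 tested members was -0.25, beside 0.03 for all tested genes. Other genes of droplet biology are given with the set term in limma, where 2.36% of genes passed. Without that term 1 of the genes in these lists, *Adm*, passed in limma (adjusted p = 0.0322), and the others named as changed had adjusted p-values from 0.0575 (*Adrb3*) to 0.423 (*Cebpb*). Within replicates 4 and 5 none passed. Of 29 tested genes of droplet assembly and surface 2 fell, the acyl-CoA synthetase *Acsl3* (log2 fold change -1.47, SE 0.24, adjusted p = 0.0160) and the sterol enzyme *Nsdhl* (-1.41, SE 0.32, adjusted p = 0.0440), and none rose. Seipin (*Bscl2*), which organizes droplet formation, was at -0.65 (adjusted p = 0.0617), and the caveolar gene *Cav1* was at -0.07. The list's median was -0.10. DESeq2 with the set term called 5 of these genes lower and 1 higher, where 4.24% of its genes passed. Within replicates 1 to 3 limma called 2 lower and 1 higher, where 3.54% passed.

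Of 13 genes of lipolysis at the droplet 2 fell and none rose. They were *Adrb3*, the receptor through which noradrenaline starts lipolysis (log2 fold change -2.37, SE 0.40, adjusted p = 0.0163), and *G0s2*, an inhibitor of adipose triglyceride lipase (-1.18, SE 0.23, adjusted p = 0.0252). The lipase itself, *Pnpla2*, was at 0.09 and its coactivator *Abhd5* at -0.94 (adjusted p = 0.0758). *G0s2* and *Hilpda* both encode inhibitors of that lipase, and their estimates had opposite signs. The list's median was -0.65. DESeq2 with the set term called 5 of these genes lower and none higher, where 4.24% of its genes passed.

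Of 11 tested genes of triglyceride synthesis 2 fell, *Agpat2* (log2 fold change -2.47, adjusted p = 0.0183) and *Mogat1* (-2.93, adjusted p = 0.0165), both acyltransferases, and the list's median was -0.61. DESeq2 with the set term called 4 of these genes lower and 1 higher, where 4.24% of its genes passed. Among 13 genes for regulators of droplet genes, *Cebpb* fell (-1.06, adjusted p = 0.0420). *Pparg*, the nuclear receptor under which many droplet genes stand, was at 0.10 (SE 0.17), and the hypoxia factors *Hif1a* and *Epas1* were at -0.20 and -0.13. None of these 3 passed. Of 18 other PPAR targets *Ucp3* fell (-2.11, adjusted p = 0.0252). Of 16 tested genes of the other hypoxia-inducible list, *Adm*, the gene of adrenomedullin, rose (1.62, adjusted p = 0.00757) and *Ldha*, of lactate dehydrogenase, fell (-0.98, adjusted p = 0.0195).

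Genes with the most similar patterns were sought by the same root mean square difference. Nearest to *Plin1* was *Clstn3* at 0.165, where the deviation of *Plin1* itself was 1.03. In adipocytes this locus also yields a shorter protein at the droplet, which gene counts do not separate. *Clstn3* shared the lows of *Plin1*, with 264 normalized counts in *Mgp*-KO 2 and 989 in *Mgp*-KO 4 and a WT mean of 3154, and its own log2 fold change of -1.35 did not pass (adjusted p = 0.182 from limma with the set term). The second was *Slc22a3*, a transporter of organic cations, at 0.297.

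For *Plin2*, *Tmem120a* was the second nearest at 0.244, where the deviation of *Plin2* was 0.89. *Tmem120a* had a log2 fold change of -1.74 with the set term. The centring left the genotype difference in the measure, so a gene chosen for likeness to *Plin2* shares its fall by that choice. For *Plin3* the nearest genes were *5430416N02Rik* (0.154) and *Slc25a47* (0.160), against a deviation of 0.53, and for *Hilpda* they were *A930004D18Rik* (0.235) and *Shisa7* (0.283), against 0.66. For *Cidea* they were *Zmat5* (0.0371) and *Rwdd2b* (0.0755), against 0.37. *Cidec* and *Fitm2* shared *1110008L16Rik* (0.0657 and 0.101), with *Tvp23b* (0.0556) and *Ephx2* (0.0821) as their other neighbours in pattern. The flatter *Plin4* and *Plin5* were nearest to *Heatr1* (0.0768) and *Slc7a6* (0.120), and to *Gins2* (0.0901) and *Ints9* (0.112). These likenesses describe 10 libraries and were not tested.

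**Figure D5:**
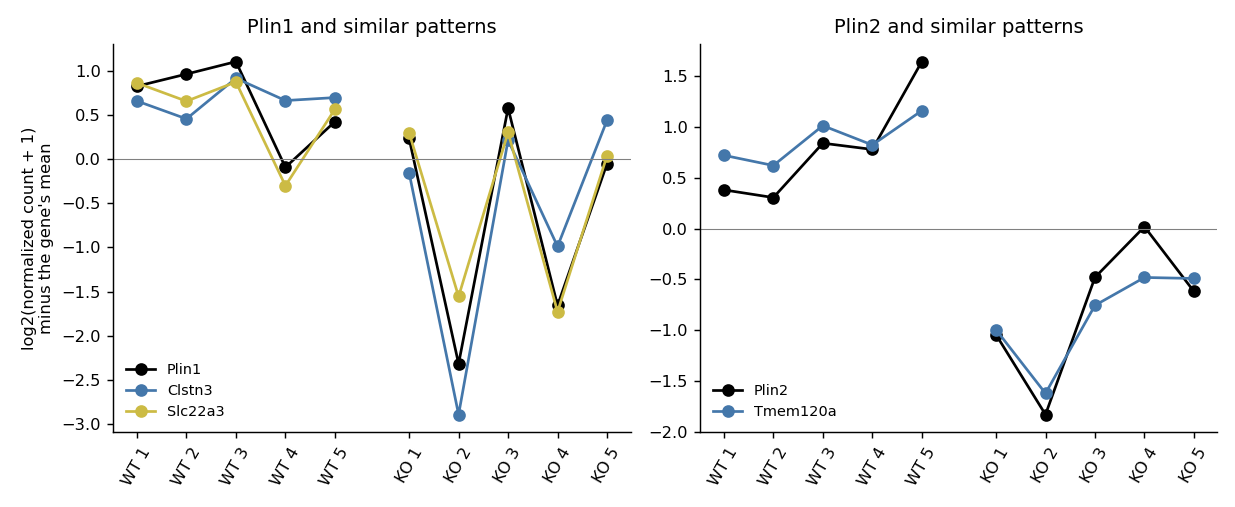
Log2(normalized count + 1) minus the mean of each gene (vertical axis) in the 10 libraries (KO, labelled *Mgp*-KO) for *Plin1* (left) and *Plin2* (right), each in black with genes of similar pattern in colour. *Plin1*, *Clstn3* and *Slc22a3* dip together in KO 2 and KO 4, and *Plin2* and *Tmem120a* are lower in each KO library than in any WT library. The coloured genes were chosen for likeness to the black one in these same libraries.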

How the data were processed

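RNA from iBAT of 5 WT and 5 *Mgp*-KO mice, as labelled, was sequenced as 50-base single reads. By the methods, the authors aligned them to mm10 with STAR, counted them on genes and deposited a signal per gene, the count divided by the size factor of the library from DESeq2. The annotation release and strand setting are not given in the sources used here. All values (100%, within 0.01 reads) were whole multiples of 1 read, so reads were recovered. They numbered 9253793 to 22252260 per library. A floor of 3 reads equals 2.15 to 5.19 normalized counts and covers counting error alone, as no source used here names molecular identifiers that would tell molecules apart.

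Tests covered genes averaging at least 10 normalized counts over the libraries. They were run with limma 3.58.1 (R 4.3.3, eBayes with trend) on log2(normalized count + 1), a scale that understates changes of low genes, with Benjamini-Hochberg adjustment over all 13714 genes. Fits were made over the 10 libraries, with a set term (replicates 1 to 3 or 4 and 5), within each set, and with the interaction of set and genotype. Alternatives were other pseudocounts, filters and scalings, no trend, the replicate block, edgeR 4.0.16 and DESeq2 1.42.0 on recovered reads, and each library left out. DESeq2 was run without the filter on mean count, and its shares are over the genes given a p-value. The limma, edgeR and DESeq2 fits without and with the set term were tested on simulated data. The members, lists and tests were chosen with earlier results of these data known. Named genes are the members, up to 4 genes of each list with the largest changes past the threshold, and the 2 genes nearest in pattern to each member, of which 1 is not reported here. *Bscl2*, *Cav1*, *Pnpla2*, *Abhd5*, *Pparg*, *Hif1a*, *Epas1*, *Adipoq*, *Ppargc1a*, *Cox8b*, *Cox7a1*, *Zic1*, *Xist* and *Ddx3y* were named after their values were seen. The other marker lists (white adipocyte, with 4 of 6 genes found, endothelial, macrophage, adipose progenitor and blood) had no gene past the threshold with the set term in limma, and DESeq2 called 1 adipose progenitor gene. Levels per kilobase and coordinates used GENCODE exons on GRCm38 (mm10).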

Additional observations from a re-analysis of the deposited data

How the results depend on the processing

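Over all 10 libraries, 183 of 198 values of the 9 members under 22 alternatives kept their direction and side of the threshold, and with the set term 169 of 180 did under 20. Without the set term, where 9 genes passed in limma, 29 passed with a pseudocount of 10, 1 without the filter, 15 at a mean of at least 50, 25 with equal upper quartiles, 34 after quantile normalization, 3 in edgeR, 374 in DESeq2 and 267 without *Mgp*-KO 4 and 5. Leaving out 1 library gave 0 to 93. Members past the threshold were 0 in limma, 2 in DESeq2, 1 without *Mgp*-KO 4 and 5, and 0 to 1 leaving out 1 library, where *Plin2* passed without *Mgp*-KO 4. With the set term 324 genes passed in limma and 1152 in DESeq2, with 56 to 678 leaving out 1 library (the lowest without WT 3, the highest without *Mgp*-KO 4), and members were 1 in limma, 3 in DESeq2, 0 without *Mgp*-KO 4 and 5, and 0 to 2 leaving out 1 library. Within replicates 1 to 3 DESeq2 called 2 members, and leaving out 1 library gave 0 to 2, with 0 without WT 1, 2 or 3 or *Mgp*-KO 1. Some values near 0 changed sign. *Plin4* was at 0.027 after quantile normalization in both fits and, without the set term only, 0.18 without *Mgp*-KO 4 and 5, and leaving out 1 library gave -0.21 to 0.12 without and -0.12 to 0.057 with the set term. *Cidec* was at 0.17 and 0.15 and *Fitm2* at 0.11 and 0.25 without *Mgp*-KO 4 and 5, and leaving out 1 library gave -0.38 to 0.044 and -0.33 to 0.0078 for *Cidec*. The causes were not tested.

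The labels number replicates 1 to 5 in both groups without saying that a number marks a shared litter or day. After group means were subtracted, libraries of the same number correlated at 0.0559 to 0.527, not all above 0.1. After set means were also removed they correlated at -0.398 to 0.223, with a mean of -0.0224. Numbers 4 and 5 then give the same value by construction, as each group has 2 libraries in that set. With the replicate block 270 genes and 1 member, *Plin2* (adjusted p = 0.0211), passed in limma, and 222 genes and 1 member in edgeR.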
